A study of Homo sapiens with 6 samples.

Results

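The cancer-testis antigen genes examined here are the gene symbols that begin with MAGEA, MAGEB, MAGEC, GAGE, PAGE, XAGE, SSX, SPANX, CT45A or CT47A followed by a number, together with CT55, CT83 and PRAME. They were chosen by name alone, by a rule that uses no measured value but was set with earlier results of these data known. The rule found 98 symbols among the 28069 genes of the estimated-count table. It matched 0 SPANX symbols, because the 11 SPANX symbols in the table carry a letter before the number. It also picked up 4 symbols that are described apart: SSX2IP, which encodes a centrosomal protein and not a cancer-testis antigen, the antisense transcripts MAGEA4-AS1 and MAGEA8-AS1, and the readthrough transcript MAGEA10-MAGEA5. Without these, 94 symbols were left.

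The study sequenced RNA from K562, an established human myeloid leukaemia line with erythroid features, in 6 libraries. The control group had 2 libraries with a guide RNA labelled sgNeg2 and the genotype label wild type. The groups sgRNA1 and sgRNA2 had 2 libraries each, made from cells given 1 of 2 guide RNAs against ZNF410 and labelled ZNF410 knockout. Each group had a replicate 1 and a replicate 2. Whether the knockout cells were clones or pools, and what a replicate number stands for, is not given in the sources used here, so the p-values measure the spread between these libraries, which may be technical.

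ZNF410 is a zinc-finger transcription factor best known as an activator of CHD4, the ATPase of the NuRD chromatin complex. Cancer-testis genes are normally transcribed in male germ cells and silent in most adult tissues, where promoter DNA methylation and chromatin repressors keep them off, and many become active in tumours. Most lie on the X chromosome in families of near-identical copies. MAGE proteins bind RING-type ubiquitin ligases, PRAME is a substrate receptor of a cullin ligase, and SSX proteins associate with Polycomb-marked chromatin.

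Levels are in CPM, estimated counts relative to library sizes that were scaled by the TMM method. FPKM, which is also corrected for transcript length, is used wherever genes are compared with each other. ZNF410 itself was at 36.0 and 34.7 CPM in the controls, 16.2 and 21.7 under sgRNA1 and 15.2 and 17.8 under sgRNA2. CHD4 was at 574 and 668 CPM in the controls, and its 4 knockout values ranged from 274 to 322. Gene totals were 17228254 to 18689560 estimated counts per library, and 8788816 to 9537470 in the separate table of whole-number counts. Libraries of 1 replicate number deviated together (Pearson r across genes 0.775 to 0.836), so the fit with the replicate number as a block is given beside the fit without it for counts of calls and for the members called, and blocked differences alone are given for the other genes. Among cell markers, the K562 erythroid list summed to 13900 and 30500 FPKM in the controls, 18000 and 43800 under sgRNA1 and 19000 and 41700 under sgRNA2. In the same order, the 2 T cell markers summed to 38.6, 6.95, 31.9, 5.04, 23.2 and 4.63 FPKM, nearly all of it CD3D, while CD3E averaged 0.128. Of the 2 epithelial markers EPCAM was at 63.7 to 76.0 FPKM. Of 8 Sertoli and germ cell markers, 7 were at 0 in all libraries, with AMH the exception.

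The promoter letters of 5 members are shown, 4 of which were called higher in the knockout with both guides (CT55, MAGEC1, MAGEC2 and MAGEB2), and 1 (MAGEA3), among the most abundant, that was not called. Each line holds the 250 bases before the RefSeq transcription start in build GRCh38.p14, 5′ to 3′ on the gene's strand, in lower case with CG dinucleotides, the sites of DNA methylation, in capitals. CT55 is chrX:135171828-135172077 on the minus strand, MAGEC1 chrX:141903644-141903893 on the plus strand and MAGEC2 chrX:142205291-142205540 on the minus strand. MAGEB2 is chrX:30215313-30215562 and MAGEA3 chrX:152698544-152698793, both on the plus strand.
CT55: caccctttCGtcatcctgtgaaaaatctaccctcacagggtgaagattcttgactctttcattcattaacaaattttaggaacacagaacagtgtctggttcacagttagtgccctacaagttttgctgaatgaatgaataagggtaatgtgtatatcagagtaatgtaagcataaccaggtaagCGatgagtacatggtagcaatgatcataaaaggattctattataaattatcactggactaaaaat
MAGEC1: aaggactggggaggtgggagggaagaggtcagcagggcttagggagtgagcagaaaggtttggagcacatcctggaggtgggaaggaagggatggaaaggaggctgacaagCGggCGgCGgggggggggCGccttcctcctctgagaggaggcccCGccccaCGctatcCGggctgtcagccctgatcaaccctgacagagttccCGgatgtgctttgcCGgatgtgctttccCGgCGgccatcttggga
MAGEC2: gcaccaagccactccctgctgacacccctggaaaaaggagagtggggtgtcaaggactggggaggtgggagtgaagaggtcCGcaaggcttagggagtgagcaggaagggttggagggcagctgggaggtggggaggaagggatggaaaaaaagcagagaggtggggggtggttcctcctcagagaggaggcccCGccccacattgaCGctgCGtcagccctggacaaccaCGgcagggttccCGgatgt
MAGEB2: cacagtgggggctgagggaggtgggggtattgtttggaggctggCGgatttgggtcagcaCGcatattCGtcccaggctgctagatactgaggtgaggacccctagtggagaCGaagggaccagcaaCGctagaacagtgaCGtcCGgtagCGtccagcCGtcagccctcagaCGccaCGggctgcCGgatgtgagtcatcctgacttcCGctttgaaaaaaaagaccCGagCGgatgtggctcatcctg
MAGEA3: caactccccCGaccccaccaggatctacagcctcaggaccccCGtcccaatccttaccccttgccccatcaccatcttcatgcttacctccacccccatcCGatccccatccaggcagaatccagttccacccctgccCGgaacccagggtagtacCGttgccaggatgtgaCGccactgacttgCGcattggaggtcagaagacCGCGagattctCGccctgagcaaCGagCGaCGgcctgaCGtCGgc

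The CT55 stretch holds 2 CG dinucleotides, against 11 in MAGEC1, 6 in MAGEC2 and 15 in both MAGEB2 and MAGEA3. Statistics over all promoters used the full RefSeq window, from 250 bases before to 50 after the start, which was found for 60 of the 98 members. The median member window held 12 CG dinucleotides, against 14 over all 27305 windows and 22 over the 15843 windows of coding genes. The called members spanned this range, with 3 in CT55, 5 in SSX1, 10 in MAGEC2, 14 in MAGEC1 and 21 in both MAGEB2 and MAGEA11. The letters CCCATAA, part of the sequence that ZNF410 recognises, were searched on both strands and occurred in 1 member window (CT45A10), or 1.67%, against 1.85% of all windows. The ETS-type letters CCGGAA, also on both strands, occurred in 6 member windows (10.0%) against 17.6% of all windows. These 6 were PRAME, MAGEB6, CT83, CT45A10, MAGEA3 and MAGEA6. The similar letters CCGGAT, which the printed MAGEC1, MAGEC2 and MAGEB2 stretches hold, were not counted.

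Most of the symbols were silent or barely detected in K562, and a few were abundant. Of the 98 symbols, 42 were at 0 in all 6 libraries (42.9%, against 34.5% of all genes), 32 were above 0 with a mean under 10 estimated counts, and 24 had a mean of at least 10. Whole families were silent or nearly so: all 12 CT47A genes and CT83 were at 0 in every library, 17 of 22 GAGE genes were at 0, and the GAGE family summed to at most 2 estimated counts in a library. The MAGEA family had 10 of its 16 symbols at a mean of at least 10, CT45A 4 of 9, MAGEB 3 of 10, MAGEC 2 of 3 and SSX 2 of 11. No PAGE or XAGE gene reached that mean. RefSeq positions were found for 86 symbols, of which 84 are on the X chromosome. The exceptions are PRAME on chromosome 22 and SSX2IP on chromosome 1.

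By length-corrected level, PRAME led with a mean of 171 FPKM, above 98.0% of all genes. MAGEA3 followed at 146 FPKM, MAGEB2 at 93.4, MAGEA6 at 86.1, MAGEA12 at 70.3, CT45A10 at 40.7 and MAGEC2 at 37.1. PRAME lay above MAGEA3 in all 6 libraries, the lowest PRAME value being 159 FPKM and the highest MAGEA3 value 150.2 FPKM. This order does not hold in the whole-number table, which gave PRAME 286 to 512 counts and MAGEA3 1647 to 1861. MAGEB2 and MAGEA6 overlapped in range (61.9 to 115 and 80.4 to 90.4 FPKM), and so did CT45A10 (33.2 to 52.1) and MAGEC2 (27.2 to 43.9). A middle tier held MAGEB16 (18.1 FPKM), MAGEC1 (16.5), MAGEA2 (9.40), MAGEA2B (8.76) and CT45A9 (7.71). SSX2IP averaged 14.8 FPKM, and the other symbols above the count limit averaged between 0.382 FPKM (MAGEA9B) and 2.96 FPKM (MAGEA8).

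**Figure D1:**
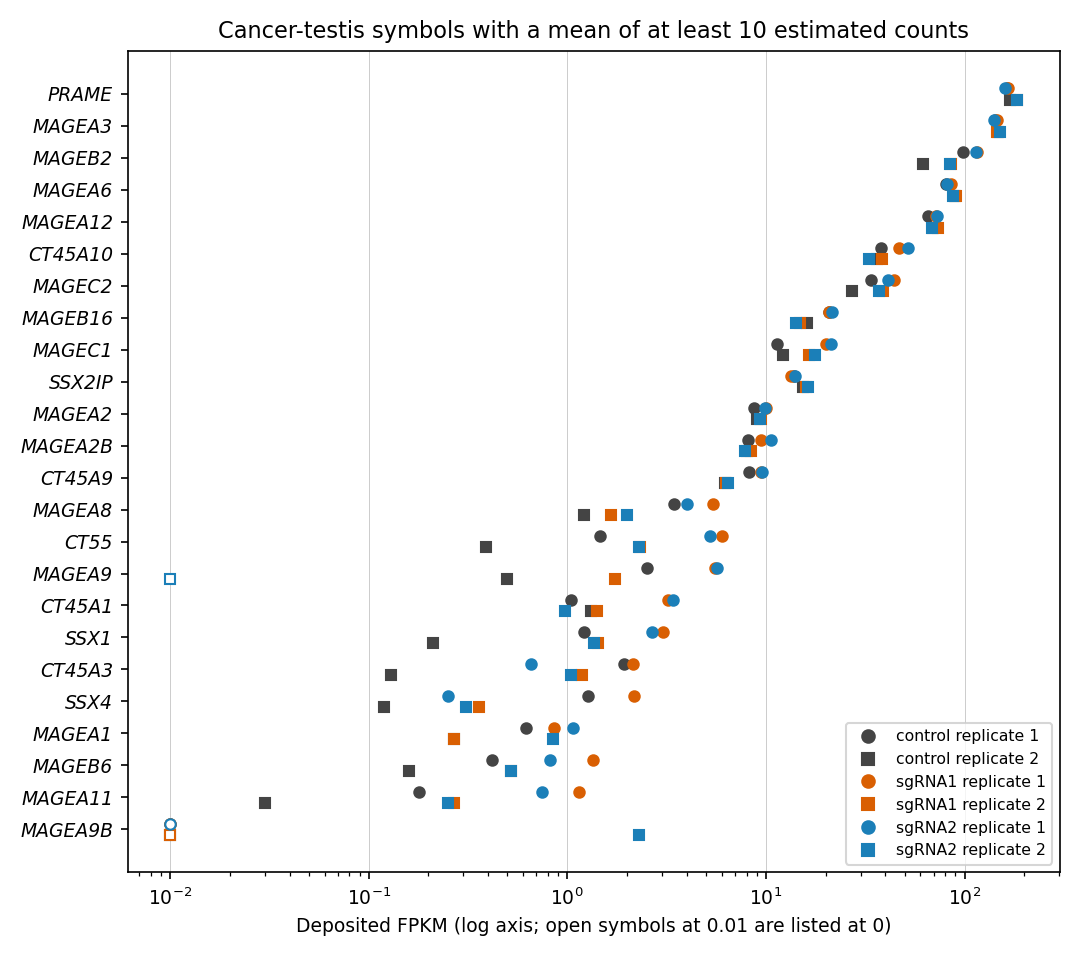
Deposited FPKM on a log axis for the 24 symbols with a mean of at least 10 estimated counts, 1 symbol for each of the 6 libraries. The values range from 0 to 185 FPKM, and the low genes, among them CT55, SSX1 and MAGEA11, spread more between libraries than PRAME or MAGEA3.

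The test of knockout against control asked whether any member differed with loss of ZNF410. It was fitted over all genes with edgeR's quasi-likelihood F-test, 4 knockout against 2 control libraries, with Benjamini-Hochberg adjustment over the 12764 genes that passed edgeR's filter on low counts. Of the 98 members, 26 passed this filter, including SSX2IP. MAGEA11, PAGE1 and PAGE4 passed it with under 10 estimated counts in both controls, so they entered through the knockout libraries, where they were higher. Without the replicate block, 0 members were called, and 0.0% of all genes. At an unadjusted p under 0.05 the same fit had 6 members (23.1%, against 2.48% of all genes): CT55, MAGEA11, MAGEC1, MAGEC2, PAGE1 and PAGE4. Among genes with at least 10 estimated counts in a control, which leaves out MAGEA11, PAGE1 and PAGE4, there were 3 of 23 members (13.0%, against 2.2% of such genes). DESeq2's Wald test on the same libraries called 1 member, MAGEC1 (0.165% of all genes), and limma on FPKM called 0.

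With the replicate number as a block, 6 members rose: CT55, MAGEA11, SSX1, MAGEC1, MAGEC2 and MAGEB2. This is 23.1% of those tested, where 1.97% of all tested genes were called higher and 1.07% lower. Among genes with at least 10 estimated counts in a control, 5 of 23 members rose (21.7%, against 1.94% of such genes), all of the above except MAGEA11. No member was called lower, and the 10 members at an unadjusted p under 0.05 were all higher (15.5% of all genes passed that level in either direction). Among genes counted in a control at that minimum, 7 of 23 members passed it (30.4%, against 15.1% of such genes). The median log2 difference was 0.36 over the 26 tested members and 0.00 over all tested genes. Over the 23 members counted in a control it was 0.23, and 20 of these were fitted above 0 (50.1% of genes counted in a control). Over all genes, the block gave calls for 3.03% in either direction. With trends of GC content and transcript length removed from each library, the same 6 members were called, although over all genes the calls moved from 251 higher and 136 lower to 257 higher (2.01%) and 248 lower (1.94%), or 3.96% in either direction. DESeq2 with the block called 5 of the 6, all except MAGEA11 (2.61% of all genes called). With whole-number counts and the block, edgeR called CT55, MAGEC1, MAGEC2 and MAGEB2 (4 of 18 tested members, 1.84% of all genes).

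**Figure D2:**
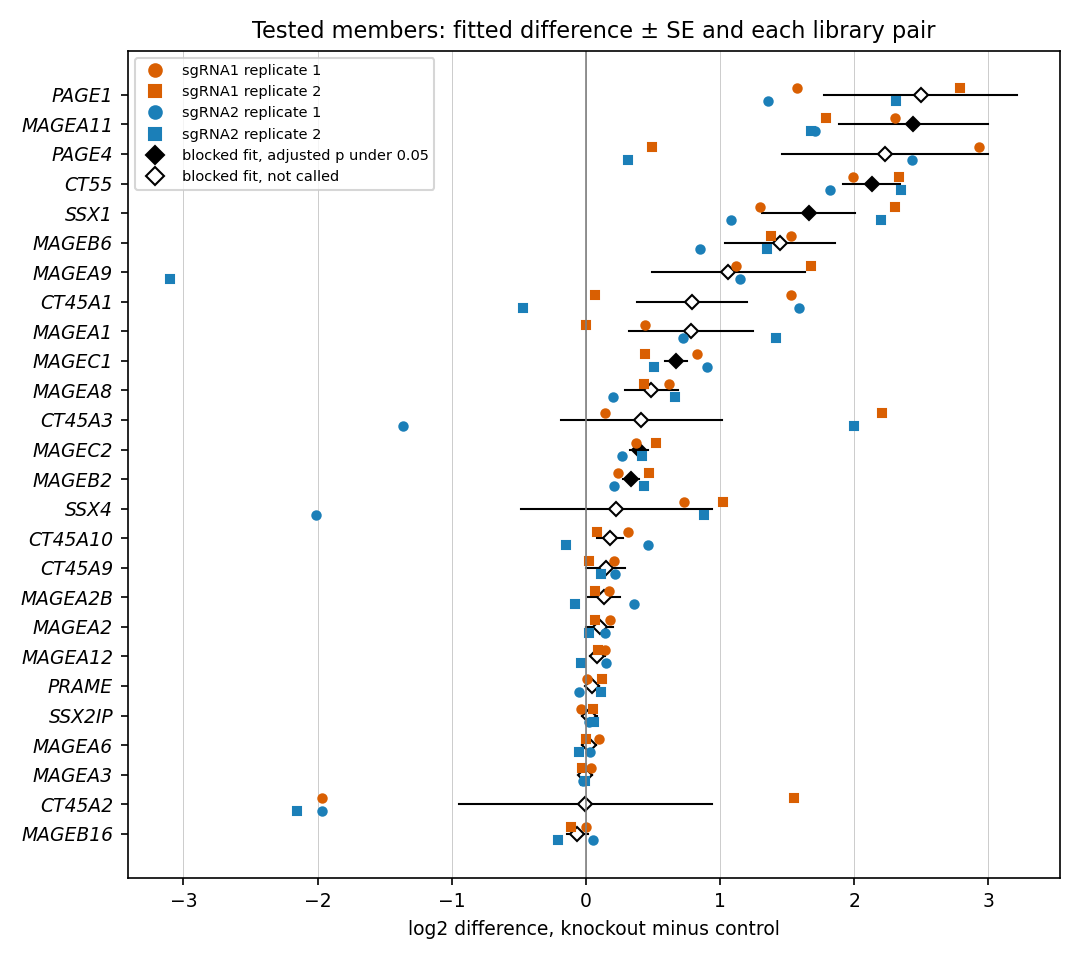
Knockout minus control on the log2 scale for the 26 tested members: diamonds are the fitted difference with the replicate block and lines its SE, and the small points are the 4 library pairs of the same replicate number, on log2(CPM + 0.1). Filled diamonds mark the 6 called members, whose 4 pairs all lie above 0, and MAGEA3, MAGEA6 and PRAME sit near 0.

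CT55, an X-linked gene transcribed in testis, had the smallest p of the members in the blocked fit of estimated counts. Its level was 2.45 and 0.702 CPM in control replicates 1 and 2, 10.0 and 3.93 CPM under sgRNA1, and 8.88 and 4.0 CPM under sgRNA2. All 4 knockout libraries lay above both controls, and replicate 1 was higher than replicate 2 in every group. Its whole-number counts were 17 and 8 in the controls, 65 and 33 under sgRNA1 and 60 and 32 under sgRNA2, in the same order. The blocked difference was 2.13 on the log2 scale (SE 0.212), or 4.38-fold, at an edgeR adjusted p of 0.000159, and without the block it was 2.09 (SE 0.672, adjusted p 1.00). The paired differences were 1.99 and 2.33 under sgRNA1 and 1.82 and 2.35 under sgRNA2. With 1 library left out and the block kept, the CT55 difference was 1.94 to 2.49. Here and for the members below, a fit without 1 of the controls kept 1 control library. Its p-value then measures no spread between controls.

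The MAGEC genes lie near each other on the X chromosome, and MAGEC2 is known to bind the ligase TRIM28. MAGEC1 was at 45.7 and 49.4 CPM in the controls, 81.2 and 67.0 under sgRNA1 and 85.5 and 70.5 under sgRNA2. MAGEC2 was at 57.8 and 46.5 CPM in the controls, 74.8 and 66.6 under sgRNA1 and 69.9 and 62.1 under sgRNA2. For both genes every knockout library was above both controls. The blocked log2 difference was 0.67 (SE 0.0819, edgeR adjusted p 0.000617) for MAGEC1 and 0.40 (SE 0.0658, adjusted p 0.006) for MAGEC2. These are 1.59-fold and 1.32-fold. Without the block the values were 0.68 and 0.39 (edgeR adjusted p 1.00 for both). Without control replicate 2 the MAGEC2 value was 0.32 and no longer called (edgeR adjusted p 0.0661), while MAGEC1 was called with any 1 library left out, at 0.48 to 0.86. The third MAGEC gene, MAGEC3, was at 0 in all libraries.

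MAGEB2, the most abundant of the MAGEB family, was at 129 and 81.9 CPM in the controls, 152 and 114 under sgRNA1 and 149.6 and 110.4 under sgRNA2. The groups overlapped, because control replicate 1 was above both replicate 2 knockout libraries, but each knockout library was above the control of its own number. Its log2 difference was 0.33 with the block (SE 0.0604, edgeR adjusted p 0.0102) and 0.32 without it (adjusted p 1.00). Without control replicate 2 it was 0.22 and not called (adjusted p 0.104). MAGEB16 was at 31.8 and 24.6 CPM in the controls and 21.3 to 32.8 in the knockout libraries, at a blocked difference of -0.06 (SE 0.0766, adjusted p 0.764). MAGEB6 was low, at 12 and 5 estimated counts in the controls and 15 to 40 in the knockout libraries. All of these were above both controls, and its blocked difference of 1.44 (SE 0.41) was not called (adjusted p 0.0884).

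SSX1, whose protein is fused to SS18 in synovial sarcoma, was at 21 and 4 estimated counts in the controls, 57.0 and 27 under sgRNA1 and 50 and 24 under sgRNA2. Every knockout library was above both controls, control replicate 1 being close below the replicate 2 knockout libraries. The blocked log2 difference was 1.66 (SE 0.349, edgeR adjusted p 0.0217), or 3.16-fold, and without the block it was 1.59 (SE 0.725, adjusted p 1.00). It was called in 2 of 6 fits that left out 1 library: 2.66 without control replicate 1 (adjusted p 0.0404) and 1.80 without sgRNA2 replicate 1 (adjusted p 0.0233). Without control replicate 2 it was 1.25 (adjusted p 0.109), without sgRNA1 replicate 1 it was 1.68 (adjusted p 0.075), without sgRNA1 replicate 2 it was 1.60 (adjusted p 0.0512) and without sgRNA2 replicate 2 it was 1.63 (adjusted p 0.0682).

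MAGEA11, known as a coactivator of the androgen receptor, had 5 and 1 estimated counts in the controls, 33 and 8 under sgRNA1 and 22 and 7 under sgRNA2. The groups did not overlap, but the counts were few. The blocked difference was 2.44 (SE 0.555, edgeR adjusted p 0.0335), and without the block it was 2.45 (SE 0.989, adjusted p 1.00). Of the fits that left out 1 library, only the one without sgRNA2 replicate 1 called it (2.66, adjusted p 0.0398). It was 2.79 without control replicate 1 (adjusted p 0.346), 2.34 without control replicate 2 (0.0943), 2.22 without sgRNA1 replicate 1 (0.16), 2.42 without sgRNA1 replicate 2 (0.0677) and 2.45 without sgRNA2 replicate 2 (0.0796), the values in parentheses being edgeR adjusted p-values.

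**Figure D3:**
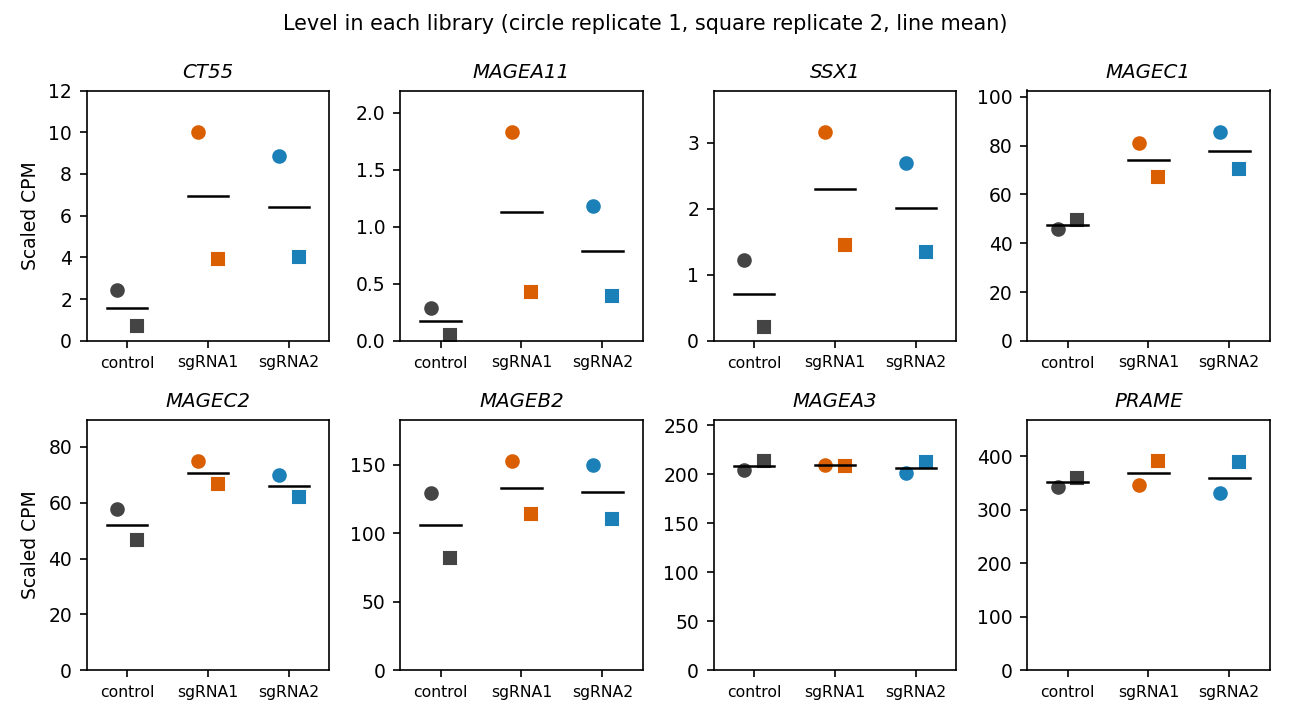
Scaled CPM in each library, from 0, for the 6 members called with the replicate block and for MAGEA3 and PRAME, with circles for replicate 1, squares for replicate 2 and lines for the mean of 2. CT55 is at 0.702 to 2.45 CPM in the controls and 3.93 to 10.0 CPM in the knockout libraries, whereas the MAGEA3 groups overlap at 201 to 213 CPM.

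PRAME and MAGEA3, the members with the highest mean FPKM, were not called. PRAME was at 343 and 360 CPM in the controls, 346 and 391 under sgRNA1 and 331 and 390 under sgRNA2, and its blocked log2 difference was 0.05 (SE 0.0495, edgeR adjusted p 0.718). PRAME held far fewer whole-number counts, 286 to 512 per library or 5.6% of its estimated counts, and with these the blocked difference was -0.36 (adjusted p 0.166). An antisense gene overlaps it in GENCODE, and the strand setting of the counting is not given in the sources used here, so PRAME is uncertain in both tables.

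MAGEA3 and MAGEA6, whose proteins bind TRIM28, differ at 18 of 942 coding positions (98.1% identity). MAGEA3 was at 204 and 213 CPM in the controls, 209 and 209 under sgRNA1 and 201 and 212 under sgRNA2. MAGEA6 was at 117 and 133 CPM in the controls and 119.7 to 133 in the knockout libraries. Their groups overlapped, and the blocked differences were -0.00 (SE 0.0473) and 0.02 (SE 0.0526). Summed, the pair had a blocked difference of 0.01 (SE 0.0460, edgeR adjusted p 0.973). MAGEA12, 92.1% identical to MAGEA3, was at 90.6 and 97.2 CPM in the controls and 94.6 to 103 in the knockout libraries, a blocked difference of 0.08 (SE 0.0583).

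Some copies are hard to tell apart by their reads. MAGEA2 and MAGEA2B, MAGEA9 and MAGEA9B, and SSX4 and SSX4B are 100% identical over their coding sequences in GENCODE. The whole-number table listed MAGEA9, MAGEA9B, SSX4, SSX4B and MAGEA2B at 0 in every library, and gave MAGEA2 3 to 21 counts. In the estimated counts, the reads of the MAGEA9 pair went to MAGEA9 in 5 libraries and to MAGEA9B, with 61, in sgRNA2 replicate 2. MAGEA9 alone was not called (blocked difference 1.06, SE 0.572, edgeR adjusted p 0.41).

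Summed, the MAGEA9 pair had 65 and 14 estimated counts in the controls, 151 and 49 under sgRNA1 and 159 and 61 under sgRNA2. Each knockout library was above the control of its number, and the groups overlapped. In a fit added after the data were seen, with near-identical copies summed before testing 12758 rows, this pair rose by 1.42 on the log2 scale with the block (SE 0.229, edgeR adjusted p 0.0046). The rise was 1.33 under sgRNA1 (adjusted p 0.0231) and 1.51 under sgRNA2 (adjusted p 0.00798). It was called with any 1 library left out, at 1.15 to 2.00, the highest without control replicate 1. Without the block its adjusted p was 1.00. The other sums were not called with the block: SSX4 with SSX4B at 0.93 (SE 0.389, adjusted p 0.265), MAGEA2 with MAGEA2B at 0.12 (SE 0.0765, adjusted p 0.502) and the 9 CT45A genes at 0.20 (SE 0.0890, adjusted p 0.312).

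Within the CT45A cluster most reads were given to CT45A10, which was at 33.2 and 31.9 CPM in the controls, 41.0 and 33.7 under sgRNA1 and 45.7 and 28.7 under sgRNA2. The groups overlapped, and replicate 2 was the lower library in each group. CT45A9, CT45A1 and CT45A3 averaged 7.71, 1.9 and 1.18 FPKM, and the coding sequences are 97.7% to 98.2% identical to that of CT45A10. None of the 4 was called in the knockout, with blocked differences of 0.18, 0.15, 0.79 and 0.41. CT45A2 had 36.1 estimated counts in sgRNA1 replicate 2 and at most 10.6 in the other libraries. Its blocked difference was 0.87 with sgRNA1 and -3.80 with sgRNA2, neither called. Whether the sharing of reads among these copies plays a part in single CT45A values was not tested. The other MAGEA members above the count limit were not called either. MAGEA8 had 92 and 35 estimated counts in the controls and 48 to 150 in the knockout libraries (blocked difference 0.49, edgeR adjusted p 0.254), and MAGEA1 had 15 and 7 against 7 to 28 (0.79, adjusted p 0.463). MAGEA2 and MAGEA2B were fitted at 0.10 and 0.14. SSX4 alone was fitted at 0.23 and SSX2IP at 0.02 (SE 0.0557).

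PAGE genes, small X-linked relatives of the GAGE family, were near the detection limit. PAGE1 had 4 and 0 estimated counts in the controls, 16 and 11 under sgRNA1 and 14 and 7 under sgRNA2. PAGE4, at 1 and 3 in the controls, had 20 and 5 under sgRNA1 and 14 and 4 under sgRNA2, and PAGE5 had 0 and 2 in the controls and 4 to 8 in the knockout libraries. The knockout libraries were above both controls for all 3. The edgeR fit with the block called neither PAGE1 (2.49, SE 0.722, adjusted p 0.0942) nor PAGE4 (2.23, SE 0.767, adjusted p 0.161), and PAGE5 did not pass its filter. On log2(FPKM + 1), limma with the block called PAGE1, PAGE5, CT55, MAGEB2, MAGEC1, MAGEC2 and SSX1 (7 members, 1.64% of all genes called). PAGE1 and PAGE5 averaged under the 0.5 FPKM minimum in the controls and passed it through the knockout libraries, and without them 5 members were called.

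By library, 9 of the 26 tested members had all 4 knockout values above both controls (4.87% of all tested genes did) and 0 had all 4 below (4.61%). These 9 were CT55, MAGEA11, MAGEA2, MAGEB6, MAGEC1, MAGEC2, PAGE1, PAGE4 and SSX1. Among genes with at least 10 estimated counts in a control, it was 6 of 23 members above (4.42% of such genes) and 0 below (4.70%). Against the control of the same replicate number, 12 members were higher in all 4 libraries (16.9% of all tested genes) and 0 lower (16.8%). Among genes counted in a control, 9 of 23 members were higher (16.3% of such genes) and 0 lower (17.1%).

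Each guide was also compared with the control in a fit of 3 group means. Without the block edgeR called 0 members with sgRNA1 (3 at an unadjusted p under 0.05, against 1.06% of all genes) and 0 under sgRNA2 (2 unadjusted, against 1.33%), and DESeq2 and limma called 0 with either guide. With the block, edgeR called the same 4 members with each guide, all higher: CT55, MAGEB2, MAGEC1 and MAGEC2. Over all tested genes, 1.0% were called higher with sgRNA1, 1.36% with sgRNA2 and 0.799% with both. CT55 was at 2.17 (SE 0.243) with sgRNA1 and 2.09 (SE 0.245) with sgRNA2. MAGEC1 was at 0.63 (SE 0.0916) and 0.71 (SE 0.0914), MAGEC2 at 0.44 (SE 0.0721) and 0.34 (SE 0.0724), and MAGEB2 at 0.35 (SE 0.0700) and 0.32 (SE 0.0701). Both comparisons used the same 2 control libraries. SSX1 (edgeR adjusted p 0.0531 and 0.0684) and MAGEA11 (0.0525 and 0.107) missed the threshold with each guide alone. In the direct comparison of sgRNA2 under sgRNA1, edgeR called 0 members with the block (0.0548% of all genes called), 2 members, CT45A2 and SSX4, had an unadjusted p under 0.05 (4.55% of all genes did), and DESeq2 and limma called 0. Without the block it called 0 members, with 0 at an unadjusted p under 0.05.

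Replicate 2 against replicate 1, with the groups as a term in the same edgeR test, called 16 of the 26 members, 13 lower and 3 higher in replicate 2. Over all tested genes 52.6% were called, 27.1% lower and 25.5% higher. The lower members included MAGEA9 (-2.72), SSX4 (-2.13), MAGEA11 (-1.89), MAGEA8 (-1.40), CT55 (-1.35), SSX1 (-1.29), MAGEB6 (-1.10), MAGEB2 (-0.51), MAGEB16 (-0.50) and MAGEC2 (-0.22), and in the CT45A cluster CT45A1 (-1.0), CT45A9 (-0.50) and CT45A10 (-0.35). The higher ones were CT45A2 (3.0), SSX2IP (0.20) and PRAME (0.15). The MAGEA9 pair summed was also lower in replicate 2 of every group, at 65 and 14, 151 and 49, and 159 and 61 estimated counts, and CT45A2 had its highest value, 36.1, in sgRNA1 replicate 2. Of the 6 members that rose with the knockout, 5 were thus lower in replicate 2, and MAGEC1 was at -0.17 (edgeR adjusted p 0.0755). In the same contrast CD3D was at -2.59 and HBG2, a fetal globin gene of the erythroid list, at 1.13. Their part in the members' values was not tested.

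**Figure D4:**
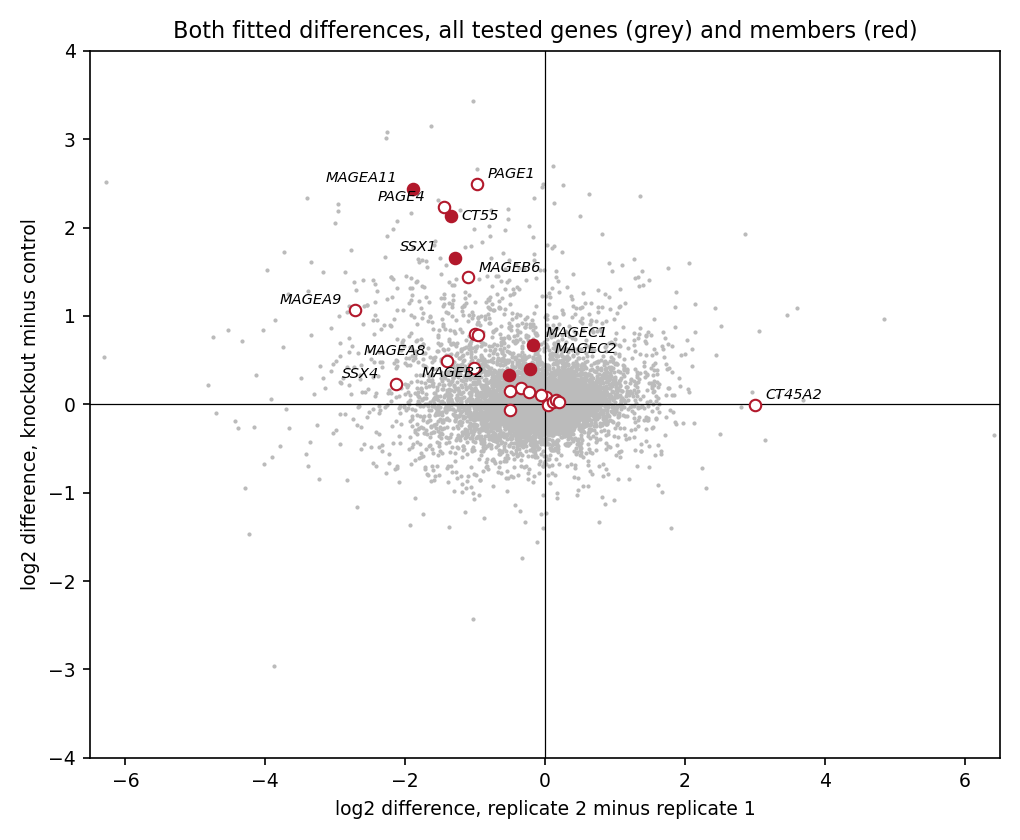
Each tested gene's log2 difference between knockout and control (y axis, with the replicate block) against that between replicate 2 and replicate 1 (x axis), with 12760 genes inside the axes and the 26 members in red, filled where called in the knockout. The filled members all lie above 0 on the y axis and left of 0 on the x axis, and CT45A2 lies apart at 3.0 on the x axis.

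Summed over families, in CPM of all estimated counts, MAGEC genes were at 103 and 95.5 in the controls, 155 and 133 under sgRNA1 and 157 and 134 under sgRNA2. The 94 symbols without those described apart summed to 1104 and 1074 in the controls, 1242 and 1185 under sgRNA1 and 1227 and 1181 under sgRNA2, a mean paired log2 difference of 0.15 (SD 0.01 over 4 pairs). For MAGEA this difference was 0.06 (SD 0.05) and for MAGEB 0.28 (SD 0.08). PAGE was at 1.95 (SD 0.59) and SSX at 1.17 (SD 0.39), both from few counts. In bulk RNA, more cells that transcribe a gene and more RNA per cell cannot be told apart.

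Genes around the called members did not pass the test. The nearest tested genes that are no members are RTL8A and ZNF75D for CT55, at blocked differences of -0.02 and -0.11, FMR1 on the higher-coordinate side of MAGEC1 and MAGEC2, at 0.01, and POLA1 and GK for MAGEB2, at -0.11 and -0.28. Those of MAGEA11 are TMEM185A (0.04) and MTM1 (0.06), and those of SSX1 are ZNF182 (-0.15) and SLC38A5 (-0.07). The edgeR adjusted p-values of these genes ranged from 0.137 (GK) to 0.985 (FMR1). Of 402 tested X-linked genes that are no members, 6 were called higher (1.49%) and 8 lower, with a median difference of -0.02.

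Genes known to silence or to work with cancer-testis genes were read from lists, with the block. Without the block edgeR called 0 genes of every list below, and with it 1.97% of all tested genes were called higher and 1.07% lower. Of 9 tested DNA methylation enzymes and cofactors edgeR called 0 (1, TET2, at an unadjusted p under 0.05, and 0 by DESeq2 or limma). DNMT1, the maintenance methyltransferase, was at 0.01 (SE 0.0460), its cofactor UHRF1 at 0.02 (SE 0.0511) and DNMT3B at -0.06 (SE 0.0713). Of 21 tested germline-gene repressors, 1 fell, CHD4 at -1.06 (SE 0.0466, edgeR adjusted p 1.37e-07), which is 4 knockout libraries below both controls. DESeq2 and limma also called CHD4 alone, and EHMT2, at 0.29 (edgeR adjusted p 0.156), was under 0.05 unadjusted. TRIM28 was at 0.01, HDAC1 at 0.02 and CBX3 at -0.06. The adjusted p of CHD4 without the block was 0.205, and that of ZNF410 was 0.000186 with the block (-1.0, SE 0.103) and 0.81 without it.

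Of 5 tested ubiquitous MAGE genes, which are transcribed in most tissues, edgeR called 0 (MAGED1 at 0.21 and MAGEH1 were under 0.05 unadjusted, and DESeq2 and limma called 0). MAGEF1 was at -0.04 and MAGED2 at 0.17. Of 8 tested ubiquitin-ligase partners of MAGE proteins and PRAME it called 0 (ELOB, at 0.16, was under 0.05 unadjusted, with 0 by DESeq2 or limma), and RBX1 was at -0.01. Of 20 tested other testis or germline genes, 2 rose: CTCFL, the germline paralogue of CTCF, at 0.24 (SE 0.0507, edgeR adjusted p 0.0203) and the mitotic kinase PBK at 0.46 (SE 0.0646, adjusted p 0.00191), while KIF2C was at -0.02. DESeq2 called both and limma PBK alone. DDX53 (0.78), CEP55 (-0.26) and PASD1 (-0.25) were under 0.05 unadjusted and not called. Another 15 of the 45 in the table were at 0 in every library. Of 10 tested K562 erythroid markers, 6 rose with the block and 0 fell, and the rest were not called. Those that rose included HBG1 (0.41), HBG2 (0.43), HBE1 (0.88), HBZ (0.56) and TAL1 (0.25). DESeq2 called 5 of the 10 and limma 4, with HBZ called by neither and TAL1 not by limma. EPCAM fell by 0.22 (edgeR adjusted p 0.041). CD3D was at -0.45 (adjusted p 0.196) and AMH at 0.18 (adjusted p 0.727). Whether these marker differences play a part in the members' values was not tested.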

How the data were processed

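Gene expression was measured by RNA-seq in 6 K562 libraries. Per the submitters' processing notes, the tools were Trim Galore, HISAT2 2.2.1, SAMtools 1.9, HTSeq 0.6.1, RSEM 1.3.2 and DESeq2 1.36.0 with build hg38, and their settings are not given in the sources used here. The authors deposited whole-number counts per symbol for 26485 symbols, and rows that name no gene (61.6% to 62.6% of each library's reads) stayed out of all totals. Per the file headers, a second table gave expected counts, TPM and FPKM for 28069 genes. The deposited TPM and FPKM values are scaled for length and depth by the authors, and TPM entered no test.

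Expected counts share reads among near-identical copies, whereas the whole-number counts leave many such copies at 0, so rounded expected counts were tested first. edgeR 4.0.16 in R 4.3.3 was used with TMM, filterByExpr by group and the quasi-likelihood F-test over all genes, with calls at an adjusted p under 0.05. SEs are the log2 difference divided by the square root of F. DESeq2 1.42.0 and limma 3.58.1, the latter on log2(FPKM + 1) where the mean was 0.5 FPKM or more, were alternatives. The scripts were tested on simulated data with known changes.

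The main fit had no block. Pairing by replicate number was checked on 10639 genes averaging 50 counts or more, as the correlation of deviations from group means: r was 0.836 between control and sgRNA1, 0.783 between control and sgRNA2 and 0.775 between the guides, so blocked values are given. The pairing comes from the data, since no label states the meaning of a number. The block lowered the biological coefficient of variation from 22.2% to 6.17%.

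Members with a mean of at least 10 estimated counts, and those called in a fit the text uses, are named. From each other list, called genes and up to 3 with the highest FPKM are named. The members and lists were chosen with earlier results of these data known. Positions and promoter windows are from RefSeq (GRCh38.p14), and coding identity is from GENCODE. For 38 members no promoter window was matched. Some genes of the marker lists and some neighbouring genes are not reported here. Counts over genes with at least 10 estimated counts in a control were added after seeing the data.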

Additional observations from a re-analysis of the deposited data

Results flagged for a closer look

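Among the 4 knockout libraries, 4 of 29 members examined had 1 library far from the other 3, and all 4 belong to sets of near-identical copies. MAGEA9B stood at 3.44 CPM in sgRNA2 replicate 2 and at 0 in the other 3, where the reads of this identical pair were listed under MAGEA9. SSX4 stood at 1.99 CPM in sgRNA1 replicate 1, against 0.215 to 0.323 CPM in the others. Its identical copy SSX4B stood at 1.94 CPM in sgRNA2 replicate 1 and at 0 in the others. CT45A2 stood at 1.94 CPM in sgRNA1 replicate 2, against 0 to 0.0564 CPM in the others. Chance flags about 1 in 20 groups where values spread normally, which such low counts do not. With 0 in the other 3 libraries, as for MAGEA9B and SSX4B, any value above 0 is flagged.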

How the results depend on the processing

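Counts of called members depended on the replicate block. For knockout against control, 0 members without the block became 6 with it. In every comparison the alternatives tested 26 members, with these exceptions. Whole-number counts tested 18, a mean of at least 50 counts 16, no filter 55, and fits with 1 library left out 28 or 29. With it the count was 6 with DESeq2 size factors, 6 of 55 with no filter on low counts (10.9%, against 2.85% of all genes), 6 with GC and length trends removed (chosen after seeing the data), 4 of 18 with whole-number counts (22.2%, against 1.84%), 4 of 16 at a mean of at least 50 counts (25%, against 3.52%), 5 with DESeq2 (19.2%, against 2.61%), 7 with limma at either pseudocount (26.9%, against 1.64% and 1.79%) and 1 of 55 with limma without a filter (1.82%, against 0.0819%). DESeq2 without the block called 1. Leaving out 1 knockout library gave 5 or 6 members with the block (17.2% to 21.4%, against 1.49% to 2.33% of all genes). Leaving out a control left 1 control library, so counts of those fits are not given.

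For sgRNA1 the blocked count was 4 (15.4%, against 1.39% of all genes). It was also 4 with size factors (against 1.37%), DESeq2 (0.901%) or trends removed (1.28%). Whole-number counts gave 4 of 18 (against 0.887%) and the higher count minimum 4 of 16 (against 1.64%). Without a filter it was 8 of 55 (14.5%, against 2.82%). Limma gave 2, CT55 and PAGE1 (against 0.372%), at a pseudocount of 1, and 1 (against 0.338%) at 0.1. For sgRNA2 it was 4 (15.4%, against 2.26%), 4 with size factors (against 2.23%) or trends removed (2.28%) and 4 of 16 at the higher minimum (against 2.61%). Whole-number counts gave 3 of 18 (against 1.38%) and DESeq2 3 (against 1.36%). The 4 with limma (against 0.795%) were other genes, CT55, MAGEC1, PAGE1 and SSX1, and PAGE1 passed the FPKM minimum through the knockout libraries. Limma at 0.1 gave 1 (against 0.711%). Without a filter it was 8 of 55 (14.5%, against 3.98%). Of those 8, 7 were higher, MAGEA9B and SSX4B among them, and CT45A2 was lower. Leaving out 1 library gave 1 to 9 members for sgRNA1, against 0.542% to 6.43% of all genes. For sgRNA2 it gave 4 to 8, against 1.95% to 9.42%. The 9 and the 8 both came without control replicate 2, where the all-gene shares were highest. Only 1 control library was left there, so these counts measure no spread between controls. Between guides the count was 3 of 55 without a filter (against 0.338% of all genes), all of them near-identical copies (CT45A2, MAGEA9B and SSX4B). It was 1 to 3 with 1 library left out (against 0.16% to 1.22%). For replicate 2 against 1, the 16 of 26 members (61.5%, against 52.6% of all genes) became 10 with no replicate block (the number as the only term; 38.5%, against 46.7%), 8 of 18 with whole-number counts (44.4%, against 45.0%), 10 of 16 at the higher minimum (62.5%, against 56.2%), 10 with DESeq2 (38.5%, against 39.0%), 21 of 55 without a filter (38.2%, against 38.1%), 16 with size factors, 15 with trends removed, 13 to 15 with limma, and 10 to 21 with 1 library left out. The share of all genes was 52.5% with size factors, 54.2% with trends removed and 37.9% to 51.2% with 1 library left out. Several of the member shares lie near the share of all genes.

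Directions that turned belonged to members that were not called. With whole-number counts, without and with the block, CT45A1 was at -0.00668 and -0.01, MAGEA2 at -0.88 and -0.87, PRAME at -0.37 and -0.36 and MAGEA3 at 0.06 and 0.06. MAGEA3 was also at 0.00332, 0.00333 and 0.00335 in the mean-count and limma fits. CT45A2, at 0.17 without the block, was at -0.00677 with it, -0.00765 with size factors, -0.02 with trends removed, -0.18 without a filter, -2.86 with DESeq2 and the block, and -0.18 or -1.35 with limma at a pseudocount of 1 or 0.1. With 1 library left out it ranged from -4.15 to 0.77 without the block and from -5.43 to 0.76 with it, at -3.95 without sgRNA1 replicate 2. For the other members, without the block, the range with 1 library left out was -0.62 to 2.99 for CT45A3, -0.03 to 0.37 for CT45A9, -0.03 to 0.02 for MAGEA3, -0.07 to 0.11 for MAGEA6, -0.09 to 1.41 for MAGEA8, -0.23 to 0.15 for MAGEB16, -0.05 to 0.11 for SSX2IP and -1.19 to 2.63 for SSX4. With the block kept, values that turned were -0.19 for CT45A1, -0.03 for CT45A10 and -0.02 for MAGEA6 (without control replicate 1), -0.47 for CT45A3, 0.02 for MAGEB16, -0.02 for PRAME, -0.09 for SSX4 and 0.00637 for MAGEA3 (without control replicate 2), -0.79 for SSX4 (without sgRNA1 replicate 1), and 0.00178 and 0.00697 for MAGEA3 (without sgRNA1 replicate 2 and sgRNA2 replicate 1). Family sums with whole-number counts gave mean paired log2 differences of 1.84 for CT55, -0.35 for PRAME, 0.07 for MAGEA3 with MAGEA6, -0.90 for MAGEA2 with MAGEA2B, 0.00 for the MAGEA9 and SSX4 pairs (not counted there) and 0.19 for the 90 of the 94 symbols in that table. Summed TPM gave 0.47 for MAGEC and 0.13 for all. Over the 15843 coding-gene windows the median was 22 CG dinucleotides, 22.9% held CCGGAA and 1.46% CCCATAA. The cause of these shifts was not tested. The 72 members under the low-count filter were not tested, and at this depth their values do not show that a difference is absent.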
